A study of Mus musculus with 12 samples.

Results

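Havcr1 and Cd44 are genes that injured kidney tubules are known to express, and they were chosen by their measured values, a Havcr1 probe and a Cd44 probe having read lower in menopausal than in control mouse kidney cortex on these arrays. The group difference is therefore given below as a description with no test. All probes annotated to either gene were taken, which gave 1 Havcr1 probe and 2 Cd44 probes of the 15600 probes on the array. Of these 3 probes, 2 passed the background filter described below, as did 7668 of the 15600 probes in all.

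The study compared RNA of kidney cortex from mice labelled menopausal, whose treatment is given as VCD, with RNA from mice labelled control. VCD is not spelled out in the labels. In mouse studies of menopause the letters usually stand for vinylcyclohexene diepoxide, which destroys small ovarian follicles and leaves the ovary in place. Each group had 3 numbered cortex samples, Menopausal 1 to 3 and Control 1 to 3, and every sample was hybridised on 4 of the 12 arrays, in 2 of them with the dye Alexa Fluor 546 and in 2 with Alexa Fluor 647. Of the arrays, 6 carried a menopausal and a control sample together and 6 carried a pair of the same group. The labels state neither strain, sex, age and dose nor whether 1 mouse or a pool gave a cortex sample. The p-values of the comparison between groups cover the spread between these samples alone, which may be technical. Those of the tests within a group and of the dye term rest on how the 12 arrays scatter about the fit. That scatter is technical and holds no variation between samples.

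Havcr1 encodes kidney injury molecule 1, also called TIM-1, a membrane receptor of the TIM family that binds phosphatidylserine on dying cells. Healthy proximal tubule holds little of it, while injured proximal tubule cells make it in large amounts, use it to take up debris and shed its outer part into the urine. Cd44 encodes the main cell surface receptor for hyaluronan, a long sugar chain of the matrix. Leukocytes carry CD44 constitutively, and in the kidney it appears on regenerating tubule cells and on activated parietal cells of the glomerulus.

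The genes lie on different chromosomes, and the 250 bases before a start of each are shown because both probes read lower in the same group. The sequences are RefSeq's for the build GRCm38.p6, written 5′ to 3′ on the strand of the gene. The table lists 3 starts for Havcr1, of which the most upstream is shown.

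Havcr1, chr11:46739973-46740222, plus strand: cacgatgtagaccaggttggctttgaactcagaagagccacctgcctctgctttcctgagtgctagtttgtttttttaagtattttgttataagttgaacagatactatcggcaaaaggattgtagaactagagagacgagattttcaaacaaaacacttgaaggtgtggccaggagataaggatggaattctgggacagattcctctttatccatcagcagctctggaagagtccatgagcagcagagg

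Cd44, chr2:102901666-102901915, minus strand: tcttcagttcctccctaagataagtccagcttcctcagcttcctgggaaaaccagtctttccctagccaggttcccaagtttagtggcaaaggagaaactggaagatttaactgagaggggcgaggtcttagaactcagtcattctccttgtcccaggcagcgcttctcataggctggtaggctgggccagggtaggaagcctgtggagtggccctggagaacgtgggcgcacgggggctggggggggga

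Capitals would mark a match to 1 of 6 motifs searched on both strands, and there was none in either window, nor in the windows of the other 2 Havcr1 starts. The motifs were the TATA box TATAAA (found in 12.4% of 32851 windows of the same length), the CCAAT box CCAAT (33.8%) and the GC box GGGCGG (32.7%). The others were the AP-1 site TGANTCA (6.75%), the STAT site TTCNNNGAA (7.02%) and the full oestrogen response element, an inverted repeat of GGTCA and TGACC with 3 bases between them (0.0639%). The absence says only that these letters are not in these windows. The windows differed in base composition, with 43.2% G or C for Havcr1 and 56.4% for Cd44, against a median of 52.4% over all windows.

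Each value below is a log2 intensity in 1 cortex sample, set against the average of all 6 and fitted over its arrays after background correction and global loess, with a term for the dye. A probe passed the filter if it exceeded its local background by more than 2 SD of that background in 6 or more of 12 channel measurements in either group. Across channels, 16.48% to 76.75% of spots exceeded background by that margin. Amounts are per tissue RNA, so fewer cells that express a gene and less of its RNA per cell cannot be told apart.

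Havcr1 was well above background throughout, in 12 of 12 menopausal and 12 of 12 control measurements, at 8.38 to 200.82 SD (median 27.9). Its mean brightness over both dyes and all arrays was at percentile 84.7 of the kept probes, although healthy proximal tubule is known to hold little of its product. Whether this probe reads Havcr1 alone was not tested. Its value was -0.53 in Menopausal 1, -0.09 in Menopausal 2 and -0.43 in Menopausal 3, against 0.61 in Control 1, 0.16 in Control 2 and 0.28 in Control 3. All 3 menopausal samples lay below all 3 control samples, with a gap of 0.26 between Menopausal 2 and Control 2. The menopausal mean was -0.35 ± 0.23 and the control mean 0.35 ± 0.23 (SD, n = 3 each). The difference was -0.70 (SE 0.17), an intensity 38.5% lower in menopausal cortex. It was the lowest difference among the 7668 kept probes, which is what brought the gene to attention.

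The first Cd44 probe, at spots 1269 and 1270, was dim. It exceeded background in 9 of 12 menopausal measurements but in 4 of 12 control ones, so it passed the filter only through the group in which it was lower. Its signal ran from -1.23 to 16.86 SD of the background, with a median of 2.51. The value was -0.05 in Menopausal 1, -0.20 in Menopausal 2 and -0.31 in Menopausal 3, against 0.09 in Control 1, 0.22 in Control 2 and 0.25 in Control 3. Again no menopausal sample reached a control sample, but the gap was 0.14. The means were -0.19 ± 0.13 in menopausal and 0.19 ± 0.08 in control cortex (SD, n = 3 each), a fitted difference of -0.37 (SE 0.09). With 8 of 12 control measurements not above background, the size of the difference depended on how background was handled, as given below, and no fold or rank is stated.

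The second Cd44 probe, at spots 9465 and 9466, carried no signal to compare. It exceeded background in 0 of 12 menopausal and 2 of 12 control measurements and was left out by the filter. Its values ran from -0.08 to 0.09 in menopausal and from -0.08 to 0.10 in control samples, so the groups overlapped. It bounds no fold change, and the Cd44 result rests on 1 dim probe.

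**Figure D1:**
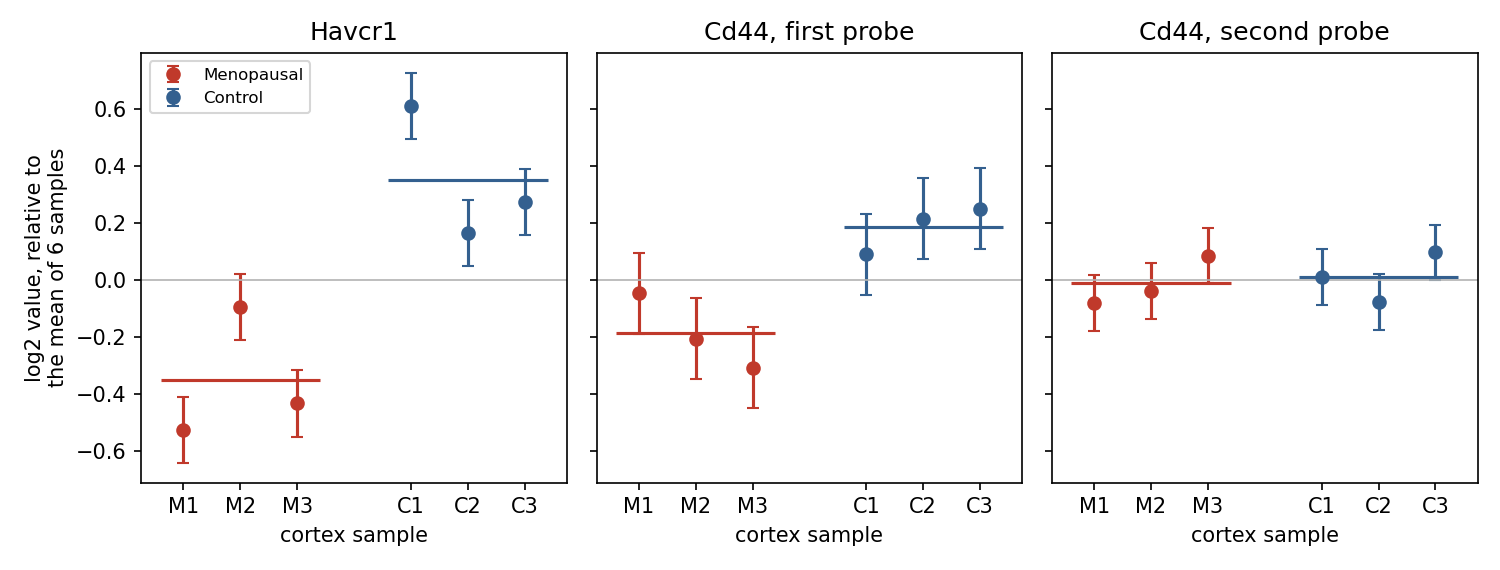
Fitted log2 values of the Havcr1 probe and both Cd44 probes in the 3 menopausal (red, left) and 3 control (blue, right) cortex samples, relative to the mean of 6 samples. Bars are the standard error between arrays and horizontal lines the group means. Groups separate for Havcr1 and, by less, for the first Cd44 probe, and overlap for the second.

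**Figure D2:**
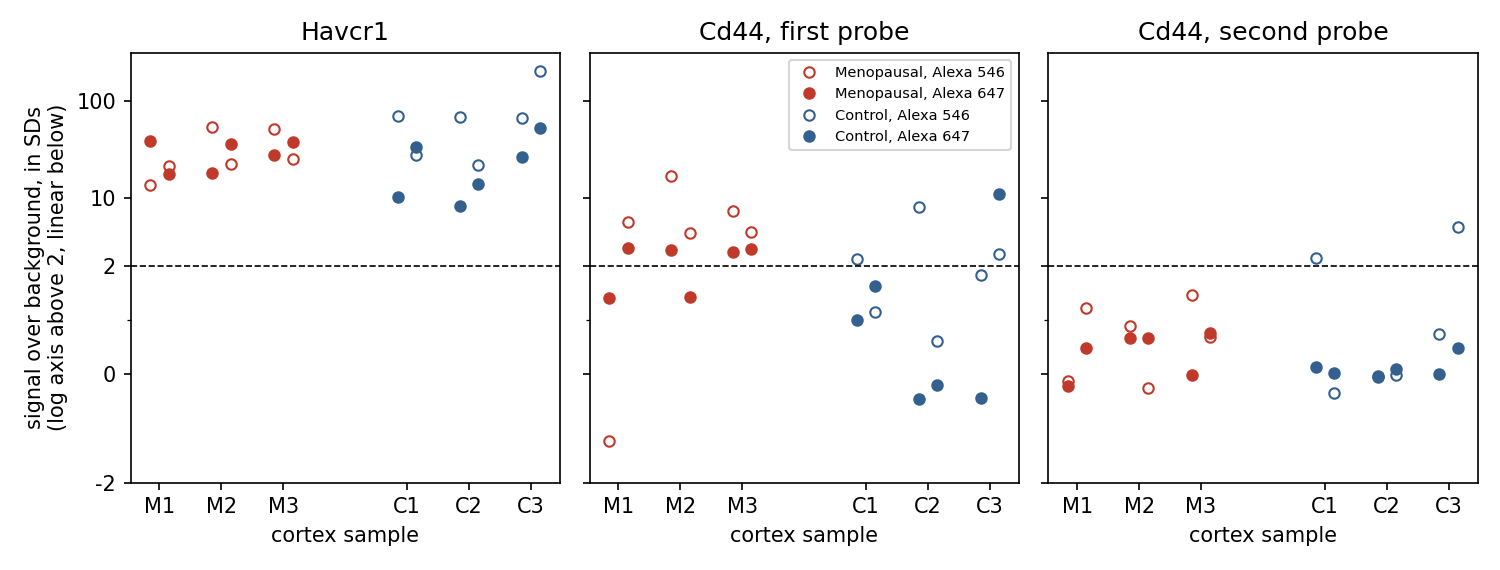
Signal minus local background of each probe in units of the background's SD, for every menopausal (left) and control (right) channel measurement, 4 per sample, on an axis that is logarithmic above 2 and linear below. Open circles are Alexa Fluor 546 and filled ones Alexa Fluor 647. All Havcr1 points lie above the dashed line at 2 SD, while the first Cd44 probe straddles it.

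Of the 7668 kept probes, limma called 0 (0.00%) at an adjusted p under 0.05, and 573 had an unadjusted p under 0.05, 345 higher and 228 lower in menopausal samples. Values of the groups did not overlap at 1008 probes (13.1%) in either direction and at 435 (5.67%) with menopausal lower. Havcr1 and the first Cd44 probe are 2 of those 435, and because they were taken from this contrast nothing is read from that count.

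From the highest to the lowest, Havcr1 ran Control 1, Control 3, Control 2, Menopausal 2, Menopausal 3 and Menopausal 1. No neighbours in that order were apart by more than 2 standard errors between arrays; the widest steps were 0.34 (SE 0.18) between Control 1 and Control 3 and 0.34 (SE 0.18) between Menopausal 2 and Menopausal 3. Cd44 ran Control 3, Control 2, Control 1, Menopausal 1, Menopausal 2 and Menopausal 3, with steps of 0.04 to 0.16 and standard errors of 0.22 to 0.24. The steps of Cd44 are all smaller than their errors, so its order within a group is not resolved. Nor is the step between its groups, from Control 1 to Menopausal 1 (0.14, SE 0.24). With print-tip loess Control 1 was the highest sample for both genes. Described over the 6 samples, which share arrays, Pearson's r between the genes was 0.68 and Spearman's rho 0.66, with the group difference that chose both included. With each group's mean removed, Pearson's r was -0.54, from Cd44 values whose order within a group is not resolved.

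Samples of 1 group were then compared with each other, with differences judged against the scatter between arrays alone. The genes were not chosen on these comparisons, but the choice may still bear on them. Groups separate more readily at probes whose samples lie close together within a group. A test that is not called below therefore does not show that the samples of a group were alike. Among the 3 control samples Havcr1 spanned 0.45 and limma's moderated F test did not call it (adjusted p = 0.396), where 77 probes (1.00%) were called. Among the 3 menopausal samples it spanned 0.43 (adjusted p = 0.497), where 11 probes (0.143%) were called. The median spans over kept probes were 0.24 in menopausal and 0.24 in control samples. With print-tip loess, which normalizes each block of spots on its own, the control samples did differ in Havcr1 (span 0.58, adjusted p = 0.037 by limma's moderated F test), with 0.62 in Control 1, 0.04 in Control 2 and 0.50 in Control 3, where 104 probes (1.36%) were called. Cd44 spanned 0.26 among menopausal samples (adjusted p = 0.762) and 0.16 among control samples (adjusted p = 0.89, limma in each case).

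The 6 arrays that carried both groups give the difference directly, and their mean equals the fitted difference because the dyes were balanced. With the menopausal sample in Alexa Fluor 647, the log2 ratio of Havcr1, menopausal over control, was -0.40 for Menopausal 1 over Control 3, -0.24 for Menopausal 2 over Control 1 and -0.31 for Menopausal 3 over Control 2. With the menopausal sample in Alexa Fluor 546 it was -1.12 for Menopausal 1 over Control 2, -0.51 for Menopausal 2 over Control 3 and -1.63 for Menopausal 3 over Control 1. All 6 ratios were below 0, but their means differed by dye, at -0.32 and -1.09. The dye term of the fit was 0.31 (SE 0.08), Alexa Fluor 647 over 546, and passed the test (limma, adjusted p = 0.014), as it did for 2034 kept probes (26.5%). That call was lost in 9 of 28 alternatives, among them each menopausal sample left out. With print-tip loess the dye term was -0.05 (adjusted p = 0.618), the means by dye were -0.75 and -0.79, and the 6 ratios ran from -1.10 to -0.32.

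For the first Cd44 probe the same arrays gave -0.27, -0.57 and -1.06 with the menopausal sample in Alexa Fluor 647, and -0.20, -0.19 and 0.07 with it in Alexa Fluor 546. Menopausal was thus lower on 5 of 6 arrays, and on 6 of 6 with the fitted dye effect removed or with print-tip loess. The dye term was -0.20 (SE 0.09; limma, adjusted p = 0.102). The ratio of -1.06, between Menopausal 3 and Control 2, was the farthest from 0, and without that array the difference was -0.26. The adjacent copies of a probe differed by a median of 0.07 for Havcr1 and 0.09 for Cd44 on the log2 scale, and by at most 0.19 and 0.49. The largest Cd44 difference between copies was on the array of Menopausal 3 and Control 1, whose ratio was 0.07.

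**Figure D3:**
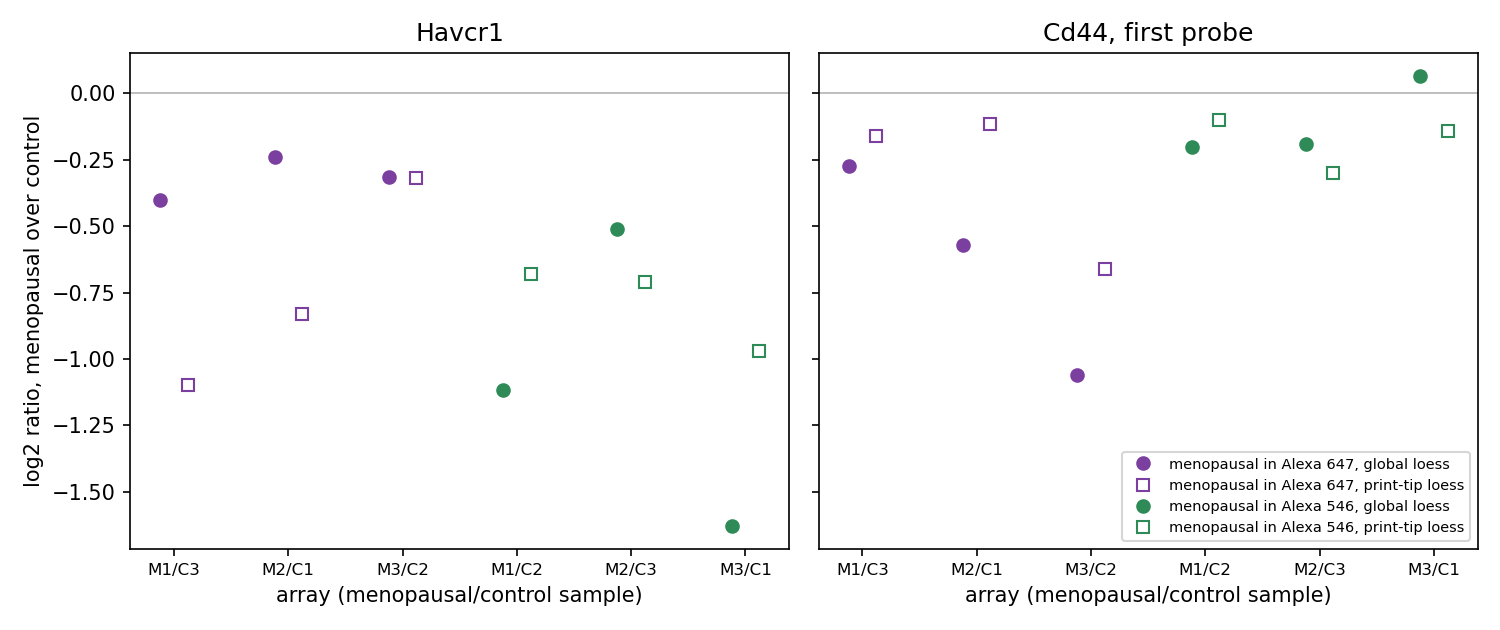
Log2 ratio of menopausal over control for Havcr1 and the first Cd44 probe on the 6 arrays that carried both groups, by the dye of the menopausal sample (purple 647, green 546) with global loess (filled) and print-tip loess (open). Every Havcr1 ratio is below 0, and for Havcr1 the means by dye are -0.75 and -0.79 with print-tip loess; for Cd44 they are -0.31 and -0.18.

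The genes lay in parts of the slide whose median differences had opposite signs. Havcr1 lay in the last of 12 columns of blocks, where the median difference of 659 kept probes was 0.15, and relative to its own block it was at -0.83. Cd44 lay in the second column, whose 580 kept probes had a median of -0.08, and relative to its own block it was at -0.24. With print-tip loess the Havcr1 difference was -0.77 and that of Cd44 -0.25. Background handling moved both further: without background subtraction Havcr1 was at -0.32 and Cd44 at -0.07, and with plain subtraction Havcr1 was at -0.85 and Cd44 at -0.70. Without Control 2 the Cd44 difference was -0.22. In the 36 alternative settings run, the groups did not overlap in 36 for Havcr1 and in 30 for Cd44. Over all probes the number without overlap, in either direction, was counted in 24 of these settings. It ran from 355 with the cross-group arrays alone to 2557 with no filter. Another filter or the sample block leaves the sample values unchanged, and groups overlap less readily with 1 sample left out. Nothing is read from the counts for the 2 genes, which were chosen on this contrast. The Cd44 groups overlapped without background subtraction, with plain subtraction, without Control 2, without either of 2 within-group arrays (Control 1 with Control 2, Menopausal 1 with Menopausal 2) and with the 6 cross-group arrays alone.

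**Figure D4:**
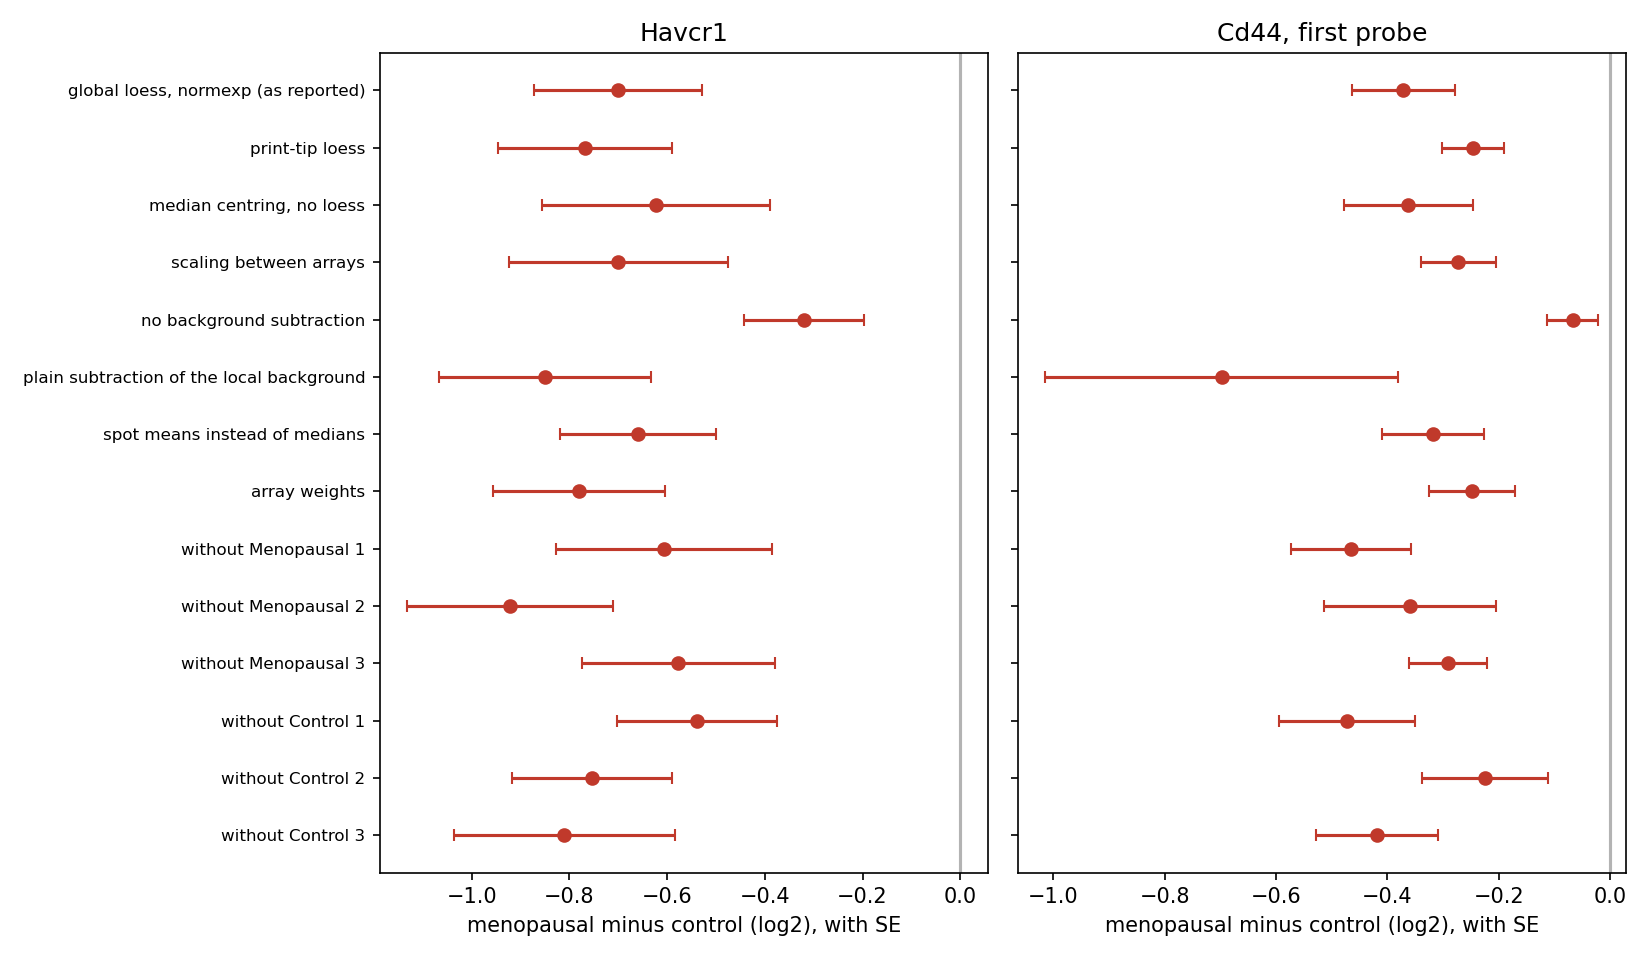
Difference of menopausal minus control on the log2 scale, with its standard error, for Havcr1 and the first Cd44 probe under each normalization and with 1 cortex sample left out at a time. All values are below 0, from -0.92 to -0.32 for Havcr1 and from -0.70 to -0.07 for Cd44.

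Like every kept probe, the other measured genes of injured tubules did not pass the test between groups. Of 57 genes listed, 28 were on the array and 17 were measured. Leaving aside Havcr1 and Cd44, which were chosen on this contrast, 7 of the other 15 were higher and 8 lower in menopausal cortex, and 0 passed (limma, adjusted over all probes). Their median was -0.02, against -0.0037 over all kept probes, of which 3771 were higher and 3897 lower. Among these 15 the widest differences were those of S100a6, a calcium-binding protein gene (-0.30, SE 0.11), and Tmsb10, which encodes an actin-sequestering thymosin (-0.18, SE 0.10). S100a6 was at 0.03, -0.20 and -0.28 in Menopausal 1 to 3, against 0.04, 0.32 and 0.09 in Control 1 to 3, so its groups were separate by a narrow margin. Next in size, Hspb1 was at -0.17 (SE 0.09) and Hmox1, the haem oxygenase induced by oxidative stress, at 0.15 (SE 0.10). Timp2 was at -0.15 (SE 0.10) and Krt8, a keratin of simple epithelia, at 0.15 (SE 0.10). Clu, the clusterin gene, was at 0.06 (SE 0.17) and Anxa2, an annexin, at -0.08 (SE 0.13). Some of these probes were near background. Hspb1 exceeded it in 8 menopausal and 5 control measurements, Tmsb10 in 7 and 6 and Krt8 in 6 and 6, against 12 and 12 for Anxa2. Small differences at such dim probes bound no change.

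**Figure D5:**
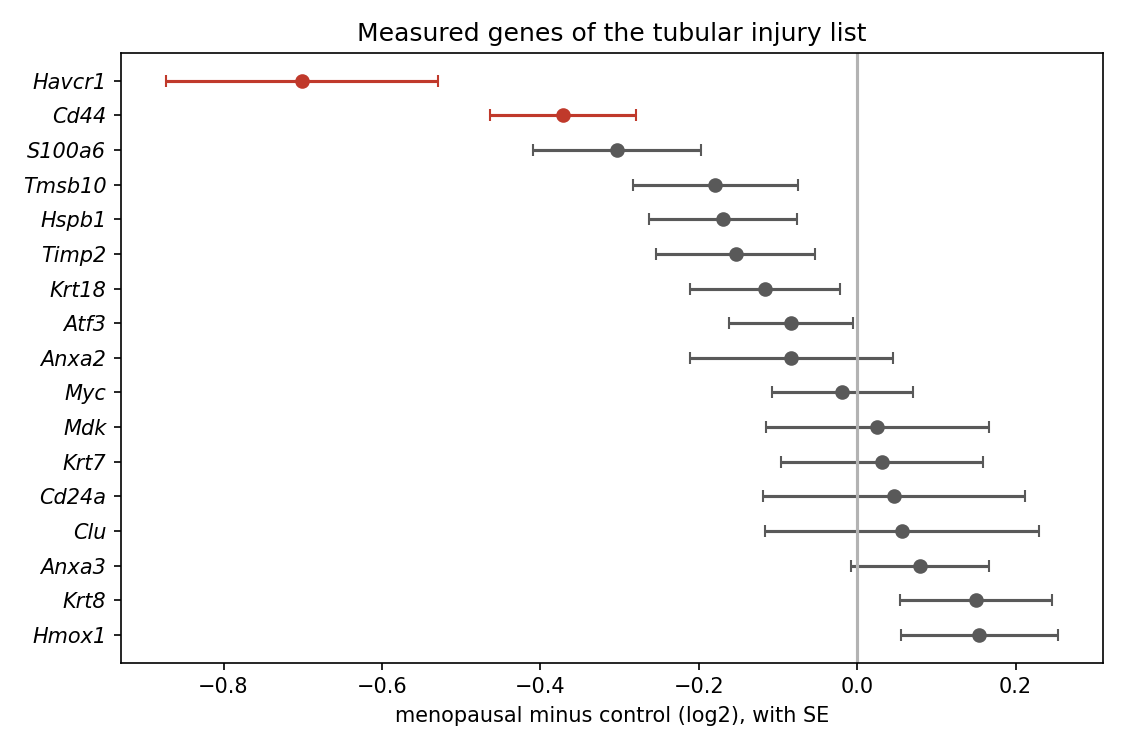
Difference of menopausal minus control on the log2 scale, with its standard error, for the 17 measured genes of the tubular injury list. Havcr1 and Cd44 (red) were chosen for their difference, and the others run from -0.30 for S100a6 to 0.15 for Hmox1.

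Among genes that work with CD44, such as its ligands, cytoskeletal partners and the proteases that shed it, 13 of the 23 on the array were measured (of 56 listed). Of these 6 were higher and 7 lower, 0 passed and the median was -0.03. The 4 widest differences were those of Rhoa, a small GTPase that acts on the actin cytoskeleton (-0.36, SE 0.18), Lama5, a laminin chain of basement membrane (-0.22, SE 0.11), Hyal2, a hyaluronidase (0.18, SE 0.09), and Msn, the moesin gene, whose protein links CD44 to actin (-0.16, SE 0.18). Ezr and Rdx, the ezrin and radixin genes of the same family, were at -0.09 and 0.12. Adam10, a protease that sheds CD44, was at 0.05 (SE 0.10). Hyal2 exceeded background in 10 menopausal but 5 control measurements.

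Around Havcr1, the list of TIM receptors, phosphatidylserine receptors and bridging proteins had 17 of 40 genes on the array and 13 measured. Of the 12 other than Havcr1, 9 were higher and 3 lower, with 0 passing and a median of 0.04. Among these 12 the widest differences were those of Axl, a receptor kinase for dying cells (0.15, SE 0.08), Pros1, the protein S gene, whose product bridges such receptors to phosphatidylserine (0.08, SE 0.16), and Timd2, a TIM family member of mice (-0.08, SE 0.09). Mfge8, which encodes another bridging protein, was at 0.03 (SE 0.13). Timd2 was near background, which it exceeded in 5 menopausal and 6 control measurements. Axl was at 0.06, 0.06 and 0.10 in Menopausal 1 to 3, against -0.02, -0.10 and -0.10 in Control 1 to 3.

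Markers of the tissue were present. The proximal tubule genes Lrp2, which encodes the endocytic receptor megalin, and Miox, the inositol oxygenase gene, were above background in all 24 measurements and differed by 0.02 (SE 0.19) and 0.08 (SE 0.18). Gatm, the creatine synthesis gene, was at -0.24 (SE 0.27), and 3 of 14 listed proximal tubule markers were on the array. Leukocytes also carry CD44: of 21 listed leukocyte markers 4 were on the array and measured, and 2 were higher and 2 lower. H2-Eb1, an antigen-presenting molecule, was at -0.30 (SE 0.14), C1qa, a complement gene of macrophages, at 0.18 (SE 0.10), Lyz2, the lysozyme gene of myeloid cells, at -0.10 (SE 0.15) and C1qb at 0.01 (SE 0.07). C1qa and C1qb were near background, which they exceeded in 6 and 7 menopausal measurements and in 3 control measurements each. No marker passed, and their part in the Cd44 difference was not tested. Distal tubule Calb1, endothelial Emcn, podocyte Podxl and fibroblast Col3a1 were at -0.12, -0.17, 0.08 and -0.16, while Dcn, the other fibroblast marker measured, was at 0.06. Hbb-b1, a haemoglobin gene of red cells, spanned -0.61 to 0.83 in menopausal and -0.77 to 1.02 in control samples.

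Among 5551 kept probes of other genes, those whose profile over the 6 samples was most like Havcr1 by Pearson's r were Fasn, the fatty acid synthase gene (r = 0.99), Snx4, a sorting nexin gene (0.98), Dmxl2 (0.98), Dcaf8 (0.97) and Depdc7 (0.97). Their differences lay between -0.24 and -0.10, smaller in size than that of Havcr1. The most opposite were Prim1, a DNA primase subunit (-0.98), Rrbp1 (-0.97) and Mcm9 (-0.97). Most like Cd44 were Ehd4, an endocytic trafficking gene (0.99), Acin1 (0.99), Stx4a, a syntaxin gene (0.99), Cbr2 (0.99) and Abtb2 (0.98), with differences of -0.36 to -0.17. The most opposite to Cd44 were Hdgf, a growth factor gene (-0.999), Acat1, a mitochondrial thiolase gene (-0.99), and Arfgap2 (-0.99). No gene was named for both. With 6 samples and this many probes, such values of r describe these samples only. The profiles include the group difference that chose both genes, so the signs of the differences follow from the ranking. The order of Cd44 within a group is not resolved. Some named probes were near background, such as Prim1 and Rrbp1 (each above it in 6 menopausal and 4 control measurements), while Hdgf was above it in 12 and 12.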

How the data were processed

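Kidney cortex RNA was amplified and coupled to Alexa Fluor dyes, per the labels' protocols. The authors deposited a scanner table for every array with the raw intensity of each spot and its local background in both channels, per the file headers. The imaging program and annotation build were not given in the sources used here. Log2 ratios in the deposited value table entered no comparison: over 3009 bright spots, 0 of its 12 columns were closest to the array of their own label, and each was closest to a different other array (correlation -0.966 to -0.904). The scan names in the scanner tables carry 1 code for each of the 6 labelled samples, so the direction between groups rests on those tables, and the mismatch is unresolved. Probe identifiers were assigned to spots by a mirrored layout chosen from the data, which put ribosomal protein probes at a mean percentile of 91.6 in brightness, against 49.8 in scanner order. In the annotation, 9191 of 15600 probes had 1 symbol, 254 several and 6155 none; old symbols were updated where possible.

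Spot medians were corrected with normexp (offset 50) and normalized by global loess in limma 3.58.1 (R 4.3.3). Adjacent copies were averaged, and sample values with a dye term were fitted over 12 arrays. Menopausal and control samples, 3 each, were compared with limma (eBayes with trend), adjusted after Benjamini-Hochberg over 7668 probes. Differences within a group were tested with a moderated F on the 12 array log ratios, and the dye term with a moderated statistic on the same ratios. The script was tested on simulated data. Alternatives covered normalization, background, filter, array weights and each sample or array left out; print-tip loess together with leaving out samples was chosen after seeing the data. The members and gene lists were chosen with earlier results of these data known. Named genes were every member probe, the 4 largest absolute differences of each list, and the 5 most like and 3 most opposite probes of each member. Hspb1, Hmox1, Timp2, Krt8, Clu, Anxa2, Ezr, Rdx, Adam10 and Mfge8 were named after their values were seen. The number of cortex samples limits the precision of the comparison between groups, and the number of arrays that of the other tests.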

Additional observations from a re-analysis of the deposited data

How the results depend on the processing

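The Havcr1 difference of -0.70 kept its direction in all 37 alternatives, from -0.96 to -0.32, and moved most without background subtraction (-0.32). That of Cd44 (-0.37) also kept its direction in all 37, at -0.25 with print-tip loess, -0.0672 without background subtraction, -0.70 with plain subtraction and -0.25 with array weights. Leaving out 1 sample or array gave -0.92 to -0.54 for Havcr1 and -0.47 to -0.22 for Cd44; with print-tip loess as well, chosen after seeing the data, -0.96 to -0.64 and -0.32 to -0.17. Both genes were chosen on this contrast, so a kept direction is no support for it. By construction, neither difference can move when within-group arrays or the dye term are left out or the sample block is added. Nor can it move with another filter, with the 6 cross-group arrays alone or with arrays as replicates. Blocking on the sample number (replicate block) left the differences at -0.70 and -0.37 with standard errors of 0.21 and 0.10, and the numbers did not pair the samples (correlations of deviations -0.43, -0.46 and -0.06). The Havcr1 dye term turned to -0.0475 with print-tip loess, and its call (adjusted p = 0.014, limma) was lost with median centring (0.275), scaling (0.0635), no background subtraction (0.848), without Menopausal 1 (0.139), Menopausal 2 (0.149), Menopausal 3 (0.13) or Control 1 (0.0786), and without the array of Menopausal 3 and Control 1 (0.0534). The medians here include Havcr1 in the injury and phosphatidylserine lists and Cd44 in the injury list. The tubular injury median (-0.08) turned to 0.0256 with a filter of 9 measurements and to 0.0177 without Control 2 (left-out range -0.125 to 0.0177). That of the CD44 list (-0.03) turned to 0.027 with median centring, to 0.0127 with no filter and to 0.027 without Control 2 (left-out range -0.0904 to 0.027). That of the phosphatidylserine list (0.04) turned to -0.0014 with plain subtraction, to -0.0059 and -0.0069 without Menopausal 1 or Control 3, and to -0.0158 without the array of Control 3 and Menopausal 1 (left-out range -0.0158 to 0.0629). The count between groups was 0 in each alternative except without Menopausal 3 (49), with a range of 0 to 49. Probes called among controls (77) numbered 6 with scaling between arrays, 9 without background subtraction, 33 with plain subtraction, 43 with no filter, 307 with array weights and 12 with no dye term, and 9 to 130 with a sample or array left out. Among menopausal samples (11) they numbered 29 with print-tip loess, 173 with median centring, 0 with scaling, without background subtraction, with plain subtraction and with no dye term, 2 with no filter, 26 with array weights, and 0 to 14 with 1 left out. Dye calls (2034) numbered 0 with print-tip loess, 905 with scaling, 687 without background subtraction and 112 to 2350 with 1 left out. Probes whose groups do not overlap (1008) numbered 553 with scaling, 645 without background subtraction, 496 with plain subtraction, 2557 with no filter, 649 with a filter of 9 measurements, 355 with the cross-group arrays alone, and 780 to 1612 with 1 array left out, the highest without that of Menopausal 3 and Control 1. The cause of these shifts was not tested. Low signal limits Cd44, and 3 samples a group limit both genes.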
